A study of Mus musculus with 26 samples.

Results

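Clustered MED1 regions are stretches of the genome where MED1 peaks lay close together in untreated fat cells. They were found in 3T3-L1 cells, a mouse fibroblast line that becomes adipocytes in culture. MED1 sites were stitched into 1 region wherever neighbouring centres lay within a fixed stitching distance, stated with the processing. A region was kept if it held 3 or more sites, at least 1 of them in both untreated MED1 lists. The members were thus chosen by the MED1 peaks of untreated cells. The rule kept 400 of 5767 stitched regions (6.94%). These regions held 1665 of the 8371 untreated MED1 sites (19.9%). What is said below of untreated MED1 in them is a description.

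MED1 is a subunit of Mediator, the large complex that links transcription factors on enhancers to RNA polymerase II at promoters. Dense runs of Mediator-bound enhancers are often found near genes that define a cell type, and lists of super-enhancers are built by stitching enhancers and ranking them by signal. No ranking by signal was done here, so the regions are called clustered, not super-enhancers. CBP and p300 are paralogous histone acetyltransferases that act as coactivators, and NCOR is a corepressor that recruits a histone deacetylase. CEBPa and CEBPb are C/EBP factors that drive adipocyte differentiation. JUND and FOSL2 are subunits of the AP-1 dimer, and ATF2 is a leucine zipper factor that can pair with Jun proteins.

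The cells were differentiated with dexamethasone, insulin and isobutylmethylxanthine, and all groups share this treatment. They were then left untreated or given 1 µM rosiglitazone in DMSO. Rosiglitazone is an antidiabetic drug that activates the nuclear receptor PPARγ. Of 26 samples, the 15 ChIP-seq peak lists were used. The remainder, 10 GRO-seq samples and an input, was not analysed here. For MED1 there were 2 untreated and 2 rosiglitazone lists. For CBP, p300 and NCOR there was a single list in each condition, and for each transcription factor a single untreated list. The labels do not say whether the 2 MED1 replicates were separate cultures, and the spread between them could be technical. The labels give no ChIP treatment time. The files are in build mm8, for which neither genome nor annotation was used here, so genes, promoters and adipocyte marker genes near the regions were not analysed.

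The lists held 4656 to 28491 peaks, each a window of 200 bp with a score from the authors. Read depth is unknown. The second MED1 rosiglitazone list starts at a score of 1.43 and the others at 1.00 to 1.09, so absence from that list says less. The word 1h stands in its peak names and 30m in those of NCOR after rosiglitazone, so lists may come from different treatment times. The peak names of NCOR, untreated and treated, also carry 20M, and those of CEBPa and CEBPb carry DS. The meaning of 20M and DS is not given, and any bearing on peak numbers was not tested. A final B in the peak names of MED1 replicate 1, untreated and treated, may mark a batch. MED1 values are therefore also given within each replicate pair.

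The largest member lay at chr16:24036214-24115429 in mm8 coordinates and spanned 79.2 kb. It held 22 MED1 sites, 14 of them in both untreated lists. Each untreated MED1 list had 18 peaks in it. After rosiglitazone, MED1 had 16 and 13 peaks there, so the number was lower in both replicate pairs. CBP went from 17 to 15 peaks, p300 from 19 to 15 and NCOR from 19 to 20. All 5 transcription factors were present many times over, with 13 peaks each of CEBPa, CEBPb and FOSL2, 15 of JUND and 18 of ATF2. No other member had as many MED1 sites or transcription factor peaks.

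The sites inside this member did not behave alike. Of its 22 MED1 sites, 11 were in both rosiglitazone MED1 lists and 4 in neither. The sites at 36.1, 72.8 and 79.1 kb from the start held peaks of all 13 other lists. The sites at 24.1 and 57.9 kb held none of them, and each was in 1 untreated MED1 list only. ATF2 was at 17 of the 22 sites, CEBPa at 13 and FOSL2 at 9. Before treatment the corepressor NCOR was at 16 sites and the coactivator p300 at 18.

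**Figure D1:**
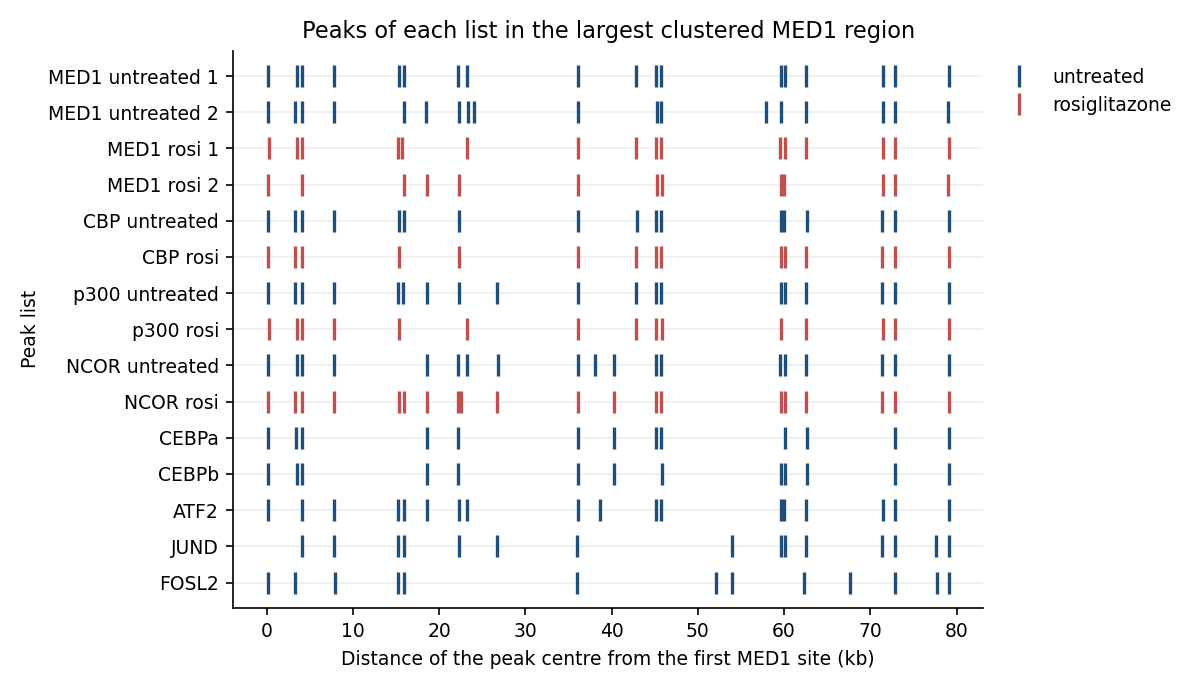
Each tick is the centre of 1 peak in the largest clustered region, placed by its distance in kb from the first MED1 site, with 1 row per list (blue untreated, red rosiglitazone). Ticks line up in columns across the 15 lists, as at 36.1, 72.8 and 79.1 kb, while the stretches between hold few peaks.

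Most members were far smaller than this one. They had 3 sites in 197 cases, 4 in 94, and 5 or more in 109. The second largest had 12 sites. The median span was 11.3 kb, with quartiles of 6.46 and 17.3 kb and a range of 1.04 to 79.2 kb. Neighbouring sites lay a median of 3.30 kb apart. Together the members covered 5.53 Mb. Another member lay within 100 kb of 108 of them.

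Agreement between the 2 untreated MED1 lists was uneven across the member sites. Both lists held 755 of the 1665 sites (45.3%), against 23.2% of all MED1 sites, but the rule asked for such a site in each member. A single both-list site was all that 191 members had. A further 564 sites were in the first replicate only and 346 in the second only. The 117 members just inside the rule, with 3 sites and 1 in both lists, spanned a median of 6.92 kb. Just outside it lay 410 regions of 2 sites with at least 1 in both lists, of median span 3.31 kb, and 157 regions of 3 or more sites with none in both lists, of median span 9.88 kb.

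Members were spread over all autosomes. Chromosome 6 held 47 members, chromosome 2 held 35, and chromosomes 5 and 19 held 29 each. Relative to its MED1 sites, chromosome 19 had the highest share in members (29.9% of 365 sites) and chromosome 18 the lowest among autosomes (10.1% of 227). The X chromosome had 72 MED1 sites and no member.

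Before treatment, both coactivators and the corepressor were present in almost every clustered region. All 3 were found together in 393 of 400 members, but a span of 3 or more sites gives each list several chances. At single both-list sites in members, all 3 were together in 81.9% of cases. Where a both-list site stood alone in its stitched region, the share was 81.3%. CBP had 1395 peaks inside members, a median of 3 per member and at most 17, and was missing from 2 members. p300 had 1380, a median of 3 and at most 19, and was missing from 3. NCOR had 1502, a median of 3 and at most 19, and was missing from 2. These numbers were close to those of MED1, whose untreated lists had 1320 and 1102 peaks in members, with a median of 3 in each.

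Most of those cofactor peaks fell on the MED1 sites and not between them. Of the peaks inside members, 90.1% of p300, 87.5% of CBP and 83.0% of NCOR peaks overlapped a MED1 site. The spans also include sequence between sites, where NCOR had the most peaks of the 3, with 256. Clustered regions took up 9.07% of all untreated CBP peaks, 9.20% of p300 peaks and 5.98% of NCOR peaks. NCOR's list was longer, at 25136 peaks against 15383 for CBP and 15007 for p300, which enters those shares.

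The transcription factors differed more from one another. ATF2 had 1366 peaks in members, with a median of 3, and was missing from 2 members. JUND had 1070 peaks, CEBPb 886, CEBPa 804 and FOSL2 745, each with a median of 2. FOSL2 was missing from 76 members, CEBPa from 39, CEBPb from 28 and JUND from 25. FOSL2 also had the lowest share of its member peaks on MED1 sites, 73.4%, against 88.4% for CEBPa, 86.5% for CEBPb, 85.3% for ATF2 and 81.0% for JUND. List length does not order these numbers: the FOSL2 list held 22716 peaks and the CEBPa list 12332.

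**Figure D2:**
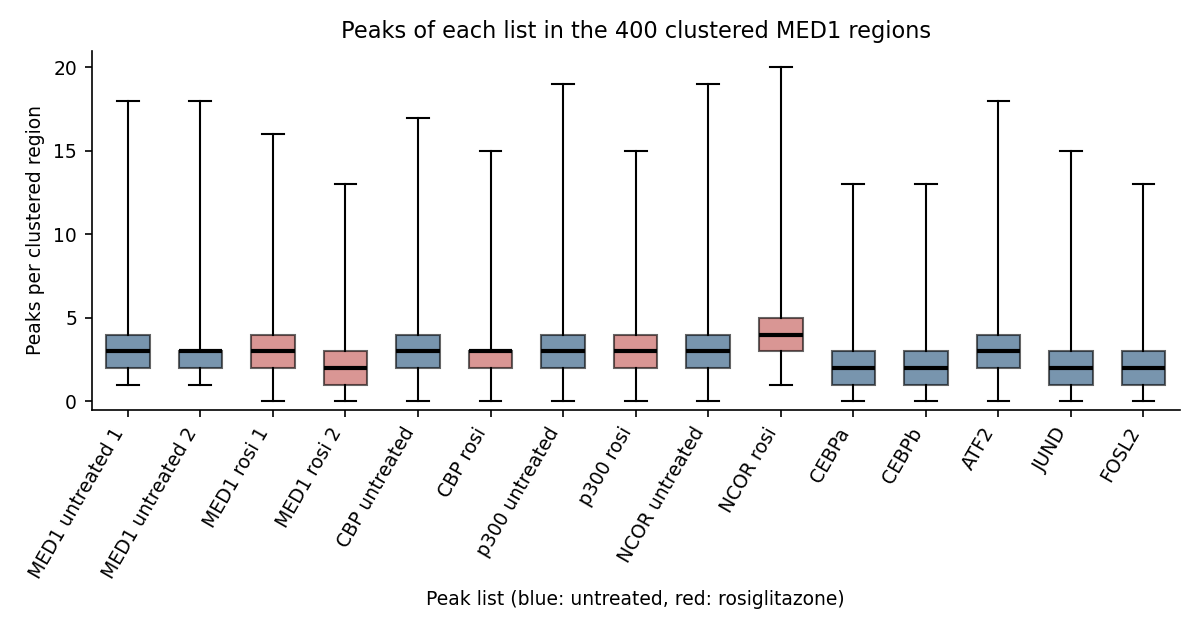
Boxes give the quartiles and thick lines the median number of peaks per clustered region for each list, and whiskers the lowest and highest of the 400 members. Medians are 2 for the second MED1 rosiglitazone list, CEBPa, CEBPb, JUND and FOSL2, 4 for NCOR after rosiglitazone, and 3 for the other lists.

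No clustered region was without a mapped transcription factor. All 5 factors were present in 281 members (70.3%), 4 in 74, 3 in 39 and 2 in 6. Where all 5 occurred, they did so at 1 MED1 site in 174 members, and in the others only across the span. A C/EBP and an AP-1 factor were both present in 358 members, and at 1 MED1 site in 311. Neither C/EBP factor was found in 22 members and neither AP-1 factor in 20. AP-1 peaks outnumbered C/EBP peaks in 195 members, C/EBP peaks outnumbered AP-1 peaks in 153, and 52 had as many of each. All 15 lists had a peak in 252 members. Longer spans can hold more kinds of factor by their length alone.

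A comparison that does not depend on span is that of single MED1 sites. The 755 both-list sites in members were set beside 691 both-list sites that stood alone in their stitched region, here called isolated. Intervals are 95% Wilson intervals and cover counting error only; sites of 1 region are not independent, and no test was made. JUND was at 64.9% of the clustered sites (61.4 to 68.2%) and 74.7% of the isolated ones (71.3 to 77.8%). FOSL2, its AP-1 partner, was at 42.4% (38.9 to 45.9%) and 48.2% (44.5 to 51.9%). ATF2 was at 87.9% (85.4 to 90.1%) and 91.5% (89.1 to 93.3%). The intervals did not overlap for JUND and did overlap for FOSL2 and ATF2.

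The C/EBP factors were found at like shares of both kinds of site. CEBPa was at 60.3% of clustered sites (56.7 to 63.7%) and 61.8% of isolated sites (58.1 to 65.3%). CEBPb was at 63.0% (59.5 to 66.4%) and 65.6% (61.9 to 69.0%). All 5 factors met at 22.3% of clustered and 26.3% of isolated sites, and no mapped factor was at 5.03% (3.69 to 6.83%) and 2.46% (1.54 to 3.90%). CBP, p300 and NCOR before treatment were together at 81.9% and 81.3%. In sites of both lists, no factor of the 5 thus had a higher share in clusters than at isolated sites.

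The direction of 4 of these differences changed when regions and sites were defined by the second untreated MED1 list alone. No site then had to be in both lists, so the kind of site changed along with the list. The share in clustered against isolated sites became 49.2% against 48.0% for JUND and 69.7% against 67.6% for ATF2. It became 53.3% against 45.3% for CEBPa and 56.7% against 49.3% for CEBPb. FOSL2 remained lower in clusters, at 30.3% against 32.2%. The 2 lists also differed in what their own sites held. Clustered sites of the first replicate only held CEBPa in 22.3% and JUND in 46.6% of cases, and those of the second only in 39.3% and 33.5%.

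**Figure D3:**
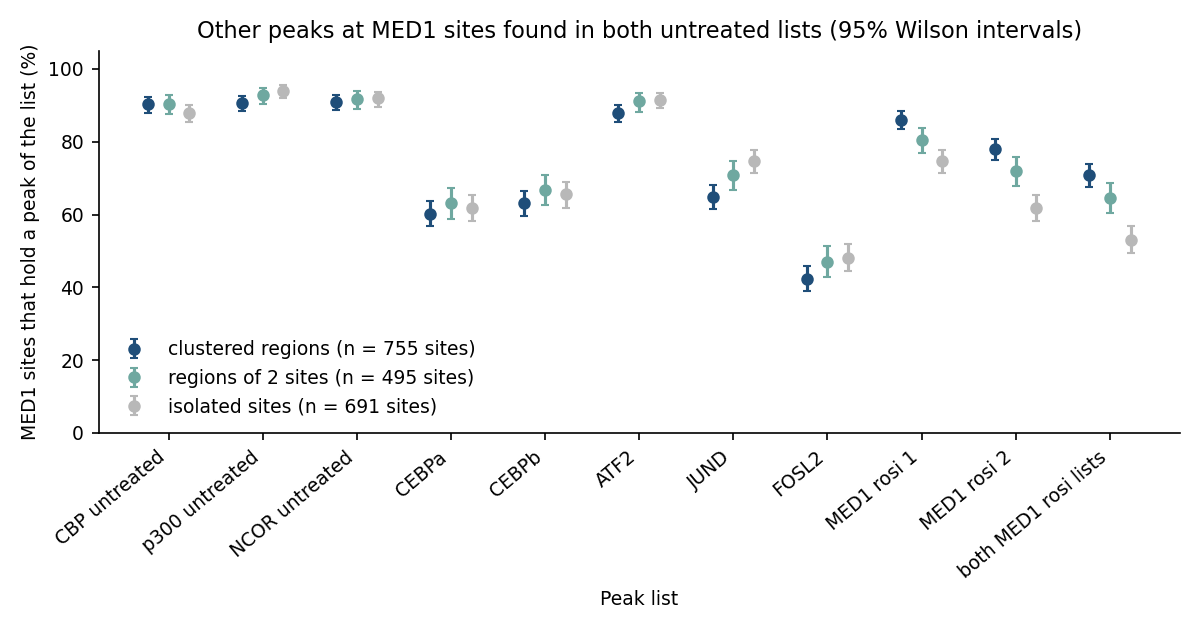
Points give the percentage of both-list MED1 sites that hold a peak of each list, and bars the 95% Wilson interval, for 755 sites in clustered regions, 495 in regions of 2 sites and 691 isolated sites. JUND is lower at clustered than at isolated sites (64.9% and 74.7%), while presence in both MED1 rosiglitazone lists is higher (70.9% and 53.1%).

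Clustered MED1 sites were also stronger sites. The median score percentile of their untreated MED1 peaks, counted from the weakest peak of each list upward, was 80.8, against 70.5 in regions of 2 sites and 58.0 at isolated sites. Within members it was 74.2 in regions of 3 sites, 78.8 in those of 4 and 87.4 in those of 5 or more. Sites were therefore also compared within 3 ranges of this percentile, a comparison chosen after the data were seen. At sites under the 50th percentile, JUND was at 57.6% of clustered (48.6 to 66.2%) and 72.3% of isolated sites (66.9 to 77.1%). From the 50th to the 75th it was at 61.2% and 75.1%, and above that at 69.0% and 78.4%.

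At like MED1 strength other lists also had lower shares in clusters. CEBPa was at 34.7% of clustered and 51.0% of isolated sites under the 50th percentile, at 55.4% and 62.0% in the middle range, and at 70.2% and 80.9% in the upper range. p300, the coactivator, was at 74.6% of the weaker clustered sites (66.0 to 81.6%) and 92.1% of the weaker isolated ones (88.5 to 94.7%). In the upper range p300 was at 94.9% and 98.1%. Weaker clustered sites without any mapped factor made up 11.02% (6.55 to 17.9%), against 3.77% (2.12 to 6.62%) of isolated ones. The gap for p300 and for sites without a factor was thus largest among weaker sites. Ranges with few sites have wide intervals: 118 clustered and 292 isolated sites were in the lowest one.

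**Figure D4:**
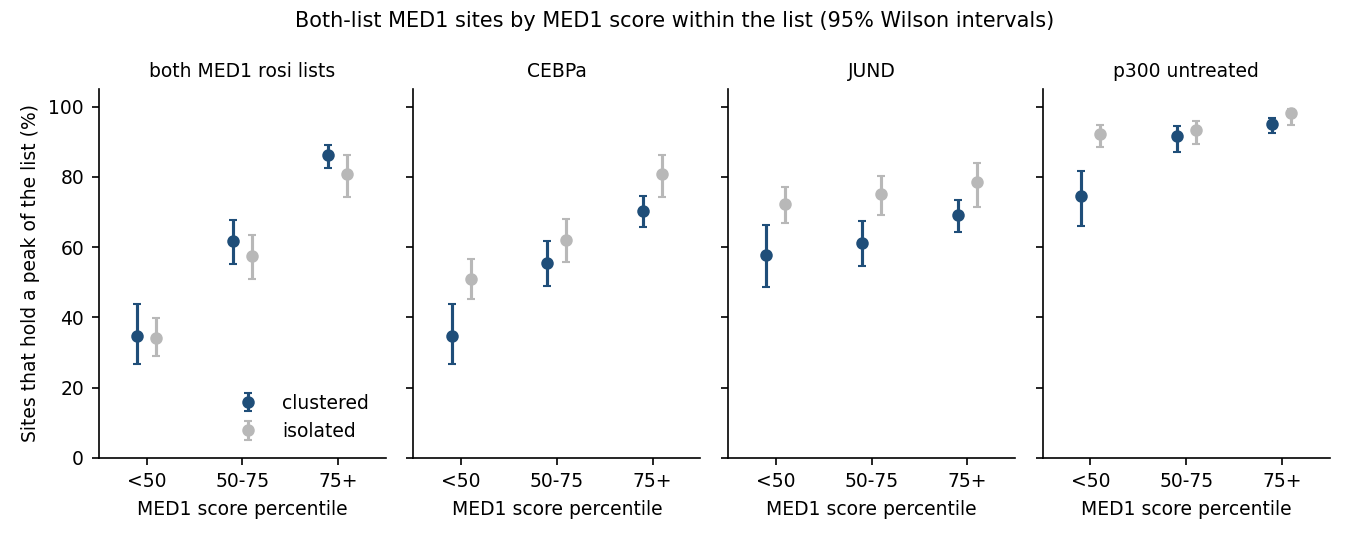
Each panel gives, for 1 readout, the percentage of both-list MED1 sites that hold it (y axis), by the range of their untreated MED1 score percentile (x axis), in clustered (blue) and isolated (grey) sites with 95% Wilson intervals. Presence in both MED1 rosiglitazone lists is at 34.7% and 34.2% in the lowest range, 61.6% and 57.4% in the middle one and 86.2% and 80.9% in the upper one, while CEBPa, JUND and p300 are lower in clusters in each range.

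The comparison with rosiglitazone asked how the occupancy of cofactors in these regions differed after the drug. The untreated MED1 lists had 1320 and 1102 peaks in members, and the rosiglitazone lists 1230 and 957. The means were 1211 ± 154 and 1094 ± 193 peaks (SD, n = 2 lists each), and the values of the 2 conditions overlapped. The log2 ratio of rosiglitazone to untreated was -0.10 in pair 1 and -0.20 in pair 2. Outside members it was 0.66 and 0.79. These ratios rest on the untreated counts that chose the members. The smallest exact two-sided p that 2 against 2 lists allow is 0.333, so no p is given.

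Because members were picked for many untreated MED1 peaks, a lower count afterwards can follow from the choice alone. Regions were therefore also defined by 1 untreated list and counted in the lists of the other replicate number. In 372 regions defined by untreated replicate 1, the replicate 2 lists went from 651 to 712 peaks, a log2 ratio of 0.13 (-0.02 to 0.28). In 204 regions defined by untreated replicate 2, the replicate 1 lists went from 528 to 594 peaks, a log2 ratio of 0.17 (0.00 to 0.34). Outside these regions the ratios were 0.67 and 0.54. Counted this way, MED1 peak number in clusters was not lower after rosiglitazone. Its ratio was below that outside, but these regions too were chosen by untreated MED1. The outside counts also take in most sites listed only after the drug. The choice therefore enters this gap as well, and no conclusion is drawn from it. For the sum of both pairs the ratio in the 400 members was -0.15. Against the mean of both untreated lists, it was 0.02 without the second rosiglitazone list and -0.34 without the first. Those 2 values cross the replicate pairs, and within pairs the ratio was -0.10 and -0.20. Regions were also defined anew by 1 untreated list, with both rosiglitazone lists kept. The ratio was then -0.39 without untreated replicate 1 and -0.60 without untreated replicate 2. In both of these settings the untreated count came from the list that chose the regions. The ratio can be low there by the choice alone.

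**Figure D5:**
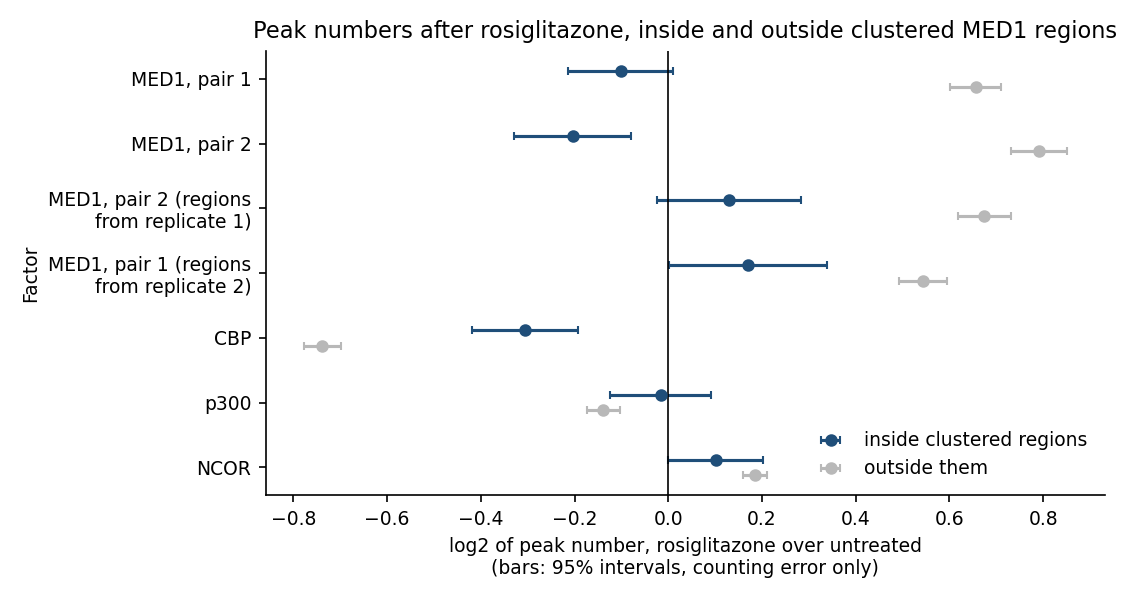
Points give the log2 ratio of peak numbers after rosiglitazone to those before, inside (blue) and outside (grey) clustered regions, with 95% intervals for counting error. MED1 lies between -0.20 and 0.17 inside and between 0.54 and 0.79 outside, and CBP is at -0.31 inside and -0.74 outside.

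MED1 was still listed in nearly all members after treatment. Both rosiglitazone lists had a peak in 357 members, only 1 of them in 37, and neither in 6. A span of 3 or more sites has several chances to hold a peak, so these counts say nothing particular about clusters. Of the 1665 single sites in members, 44.1% were in both rosiglitazone lists and 25.8% in neither. In both replicate pairs, 77 members had fewer MED1 peaks than before and 32 had more. Over all 5767 stitched regions, 5.86% had fewer and 1.28% more, but those are mostly single sites that have only 1 peak to lose, and the rule used the untreated counts. In regions of 2 sites the shares were 13.1% and 3.26%.

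A higher share of sites was retained in clusters than among isolated sites. Both rosiglitazone MED1 lists held 70.9% of the 755 clustered both-list sites (67.5 to 74.0%), against 53.1% of isolated sites (49.4 to 56.8%) and 63.0% of all 1941 both-list sites. Neither list held 6.75% and 16.6%. The strength of the sites moved with this difference. Under the 50th score percentile, 34.7% of clustered and 34.2% of isolated sites were retained. From the 50th to the 75th it was 61.6% (55.1 to 67.7%) and 57.4% (51.0 to 63.5%), and above it 86.2% (82.5 to 89.2%) and 80.9% (74.1 to 86.2%), with overlapping intervals in all 3 ranges.

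CBP had fewer peaks in clustered regions after rosiglitazone, 1129 against 1395. The log2 ratio was -0.31 (-0.42 to -0.19), nearer to 0 than the -0.74 outside. Fewer CBP peaks were found in 204 members, more in 36 and the same number in 160. Over all stitched regions, 22.8% had fewer and 5.62% more, and in regions of 2 sites 31.2% and 8.11%, so the count per region moves with the number of sites it holds. The CBP list itself was shorter after treatment, with 9515 peaks against 15383. When the longer list was cut to the length of the shorter by score, the ratio in members was -0.03 and that outside was 0.00. With 1 list per condition, library and treatment cannot be told apart.

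A higher share of CBP peaks was common to both conditions in members than outside them. Outside takes in all other CBP peaks, at MED1 sites or not. Of untreated CBP peaks, 73.4% in members (71.0 to 75.7%) and 49.1% outside (48.3 to 49.9%) overlapped a rosiglitazone CBP peak. Peaks in members were stronger, with a median score percentile of 74.0 in the untreated list. Within ranges of their own score, the shares were 42.0% and 27.2% under the 50th percentile, 73.4% and 62.4% in the middle range, and 90.0% and 86.4% above. These ranges were also chosen after the data were seen. Between clustered and isolated both-list MED1 sites the loss of CBP was alike. CBP was listed only before treatment at 11.5% of clustered sites (9.44 to 14.0%) and 10.6% of isolated ones (8.49 to 13.1%).

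p300 was listed at nearly the same number of places before and after. It had 1380 peaks in members without the drug and 1365 with it, a log2 ratio of -0.02 (-0.12 to 0.09), against -0.14 outside. The p300 list was also shorter after treatment, with 13746 peaks against 15007. With lists of equal length the ratio was 0.022 in members and -0.002 outside. Fewer p300 peaks were found in 119 members, more in 104 and the same number in 177. The shares with fewer and with more over all stitched regions were 16.2% and 9.94%, and in regions of 2 sites 21.8% and 15.1%. Here too the count moves with the number of sites. The near-equal totals thus came with changes in both directions in single members. Of untreated p300 peaks in members, 82.8% (80.7 to 84.7%) were shared with the rosiglitazone list, against 60.4% outside. Within the 3 ranges of their own score the shares were 53.8% and 42.2%, 80.5% and 72.8%, and 94.0% and 89.0%. At both-list MED1 sites, p300 was listed only before treatment at 5.96% of clustered and 6.66% of isolated sites.

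NCOR, the corepressor, had slightly more peaks in members after the drug, 1611 against 1502. The log2 ratio was 0.10, with an interval of -0.00 to 0.20, against 0.19 outside. More NCOR peaks were found in 138 members, fewer in 72 and the same number in 190. Over all stitched regions, 12.8% had more and 8.84% fewer, and in regions of 2 sites 17.7% and 13.7%. This count too moves with the number of sites in a region. With lists of equal length the ratio was 0.07 in members and 0.00 outside. After rosiglitazone NCOR had a peak in all 400 members, with a median of 4. Of untreated NCOR peaks, 88.5% in members and 74.4% outside were shared with the rosiglitazone list. Within ranges of their own score the difference was not of 1 direction, with 62.8% in members and 57.8% outside under the 50th percentile, 84.0% and 86.5% in the middle range, and 96.9% and 97.7% above. At both-list MED1 sites, NCOR was listed only before treatment at 3.18% of clustered and 2.89% of isolated sites.

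CBP and p300 changed in number together in some members and in opposite directions in others. CBP and p300 both had fewer peaks in 76 members (19.0%, against 6.88% of all stitched regions), and both had more in 14 (3.50% against 1.39%). CBP had fewer and p300 more in 45 (11.2% against 2.84%), and the reverse held in 8 (2.00% against 0.711%). CBP had fewer and NCOR more in 69 (17.2% against 4.06%). The shares over all stitched regions are low because most of those regions are single sites, so they say nothing particular about clusters. Across the 400 members, the changes in peak number had a Pearson r of 0.16 between CBP and p300, 0.003 between CBP and NCOR and -0.02 between p300 and NCOR. Members share libraries, and correlations this weak in small counts are given as a description only.

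Single members show these patterns. The second largest, chr8:129762856-129816152, had 12 MED1 sites and the largest gain in p300 number, from 9 to 15 peaks, while CBP went from 12 to 11 and NCOR stayed at 13. MED1 there went from 8 to 11 peaks in pair 1 and from 10 to 11 in pair 2. The third, chr8:127703513-127762413, had one of the 2 largest gains in MED1 number over both pairs, from 10 to 13 and from 7 to 10 peaks. CBP went the other way there, from 9 to 7. Its transcription factor content was uneven, with 10 ATF2 peaks but 3 of CEBPa, 3 of JUND and 2 of FOSL2.

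The fourth, chr9:102582434-102622014, had the largest gain in CBP number, from 8 to 11 peaks, and NCOR went from 8 to 12 in the same region. MED1 was nearly level there, at 9 and 8 peaks in pair 1 and 7 and 7 in pair 2. At chr14:77997006-78034268 NCOR had its largest gain, from 5 to 11 peaks, while CBP went from 6 to 3. NCOR number was thus higher in both regions, with CBP higher in the first and lower in the second.

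Lower counts were found in other members. At chr17:83794104-83812033, MED1 went from 3 to 1 peaks in pair 1 and from 8 to 3 in pair 2, and p300 from 5 to 2, while NCOR kept 8. At chr13:23551678-23593633, MED1 went from 5 to 1 and from 4 to 2 peaks, and the region no longer met the rule after rosiglitazone. It was a region without C/EBP peaks, with 7 of ATF2, 5 of JUND and 3 of FOSL2. At chr9:65173125-65207028, CBP went from 8 to 4 and p300 from 10 to 6 peaks, while MED1 was level in pair 1 at 8 and went from 2 to 4 in pair 2. Both coactivators were thus lower in number there without MED1 being lower.

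Some clusters belong to stretches with several members. On chromosome 6, 4 members lay between 115198257 and 115507694, and the one with most MED1 sites, 7, went from 6 to 4 and from 7 to 4 MED1 peaks and from 6 to 3 CBP peaks. On chromosome 3, 4 members lay between 10060024 and 10277166, and the one with most sites, 5, went from 5 to 4 MED1 peaks in pair 1, kept 4 in pair 2 and kept 5 CBP and 5 p300 peaks. These 2 stretches were chosen after their values were seen and are not those with most members. The stretch on chromosome 19 between 44248809 and 44528891, for example, held more.

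The 6 members without MED1 in either rosiglitazone list had 3 or 4 sites each and 1 both-list site. Their mean MED1 score percentile ran from 25.1 to 57.0, against a median of 65.0 over all members. All 6 kept CBP, p300 and NCOR, with 1 or 2 CBP peaks and 1 or 2 p300 peaks after treatment and 2 to 4 of NCOR. They were picked for the absence of MED1, and over all 400 members CBP, p300 and NCOR were present after treatment in 390, 397 and 400.

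Some MED1 sites were found in both rosiglitazone lists and in neither untreated list. There were 29 in 26 members, at most 2 per member, and 714 outside. Their number per length of sequence was not compared, and the members' spans cover only 5.53 Mb. Of the 29, 14 held p300 before treatment (48.3%) and 22 after it (75.9%), and of those outside 56.2% and 72.3% did. CBP was at 13 before and 13 after (44.8%), and outside at 47.9% and 46.4%. NCOR was at 20 and 22 (69.0% and 75.9%), and outside at 75.1% and 79.4%. The p300 and NCOR shares were thus higher after treatment both inside and outside members, but these sites were chosen by MED1 after the drug. Each cofactor had 1 list per condition. The NCOR list was longer after treatment (28491 peaks against 25136) and the p300 list shorter. Inside members the NCOR intervals overlapped, at 50.8 to 82.7% before and 57.9 to 87.8% after. Those of p300 did too, at 31.4 to 65.6% and 57.9 to 87.8%. No mapped factor was at 11 of the 29 (37.9%, interval 22.7 to 56.0%), and at 30.4% of those outside. JUND was at 5 of the 29 (17.2%, 7.60 to 34.5%) and at 32.2% of those outside, with overlapping intervals.

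Applied to the rosiglitazone lists, the same rule gave 684 regions, against 400 before. Of the 400, 273 (68.3%) overlapped one of the 684, and 277 of the 684 (40.5%) overlapped one of the 400. Among members of 5 or more sites, 95 of 109 (87.2%) overlapped a cluster after treatment, and among members of 3 sites 112 of 197 (56.9%). Site number was part of the rule, larger members have longer spans to overlap, and their both-list sites were stronger (median percentile 87.4 against 74.2), so this split is a description. Of the 407 regions that met the rule only after treatment, 353 overlapped a stitched untreated MED1 region and 54 overlapped no untreated MED1 site. The rosiglitazone lists were longer, and with all 4 MED1 lists cut to equal length the rule gave 413 regions after and 365 before.

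Members that no longer met the rule differed in content from those that did, by medians and totals. The 127 lost members spanned a median of 9.36 kb, and the 273 kept ones 12.53 kb. In the lost ones MED1 went from 341 to 206 and from 270 to 134 peaks, and CBP from 358 to 257. p300 went from 338 to 297 and NCOR from 363 to 383. In the kept ones MED1 went from 979 to 1024 and from 832 to 823, CBP from 1037 to 872, p300 from 1042 to 1068 and NCOR from 1139 to 1228. The split was made by MED1 after treatment, so its MED1 values are part of the choice, while NCOR was higher in number in both groups and CBP lower in both.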

How the data were processed

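The authors deposited 1 peak list per ChIP-seq library, with a score for each 200 bp peak window. The submitters' processing notes name HOMER, Bowtie and bedtools and the build mm8. Tool versions, peak thresholds and the divisor of the score were not given in the sources used here. Scores were used only to rank peaks within a list. MED1 windows overlapping by 1 bp or more were joined into sites, and sites with centres at most 12.5 kb apart were stitched. A peak counted in a region if it overlapped the span from its first to its last site. Changes were counted from 1 peak upward. Shares carry 95% Wilson intervals; intervals of log2 ratios come from the Wilson interval of the rosiglitazone share of peaks. Both cover counting error only. No test was made, since MED1 chose the members and the other lists had 1 library per condition. Members and settings were chosen with earlier results of these data known. Regions named were the 10 with most MED1 sites, the largest changes of each cofactor and those with most factor peaks, of which those in the text are a part. Other settings were another overlap or stitching distance, stricter site rules, the upper 50% of each list, lists of equal length, wider spans and each MED1 list left out; ranges of score were added after the data were seen. The code was tested on simulated data. Coordinates count from 1. Computations used Python 3.11.15, numpy 2.4.6, scipy 1.17.1, pandas 2.3.3 and matplotlib 3.10.9.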

Additional observations from a re-analysis of the deposited data

How the results depend on the processing

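Of 127 values under other settings, 78 stayed near the main value and 49 moved. For the MED1 ratio the bound was the SD of the 2 within-pair log2 ratios, and for counts a factor of 1.5. For all other values it was the 95% Wilson interval of the main value, which covers counting error only. The 400 regions became 208 with stitching at 5 kb, 203 with 4 or more sites, 209 with at least 2 both-list sites and 201 with the upper 50% of each list by score, and 204 to 372 when 1 untreated MED1 list defined them. The MED1 log2 ratio of -0.15 became -0.29 at 5 kb, -0.051 with the upper 50% and -0.26 with lists of equal length, ran from -0.60 to 0.022 with 1 MED1 list left out (0.022 without rosiglitazone replicate 2), and was 0.13 and 0.17 in held-out lists. Without an untreated list, the untreated count came from the list that chose the regions, so that ratio can be low by the choice alone. With 1 MED1 list left out, both lists of the other condition were kept, so these ratios cross the replicate pairs. As a mean over paired lists, with the replicate block, the MED1 ratio was -0.15. The CBP ratio became -0.030 with equal length. With the upper 50%, the shares of clustered sites were 52.6% for CEBPa, 56.7% for CEBPb, 79.6% for ATF2, 47.0% for JUND and 26.3% for FOSL2, and 76.4% were retained in both rosiglitazone lists. An overlap of 50% gave 85.0% for ATF2 and 36.8% for FOSL2. With 1 untreated MED1 list left out (for retained sites, any MED1 list), the shares ran from 35.7 to 53.3% for CEBPa, 39.1 to 56.7% for CEBPb, 69.7 to 72.5% for ATF2, 49.2 to 56.1% for JUND, 30.3 to 35.9% for FOSL2 and 39.7 to 86.1% for retained sites. Without an untreated list the sites are those of the other untreated list; without a rosiglitazone list they are unchanged and only 1 rosiglitazone list had to hold them. The 684 regions after rosiglitazone became 384 at 5 kb, 367 with 4 or more sites, 363 with at least 2 both-list sites, 330 with the upper 50% and 413 with equal length. They became 336 without rosiglitazone replicate 1 and 627 without replicate 2. Leaving out an untreated list cannot change this number, and those settings are counted among the 78. Asking for a change of at least 2 peaks left 6 members with more and 77 with fewer CBP peaks, 29 and 29 for p300, and 37 and 9 for NCOR. The cause of these shifts was not tested. Read depth is unknown, so absence from a list may reflect its depth.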
